A study of Mus musculus with 12 samples.

Results

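Embryos released from an arrest in U0126 and collected at day 3.5 were compared with control embryos of day 2.5, the group given a like cell number: 8 cells after release and 4 to 8 cells in the controls. The members are the 4 arrays of these groups, 2 for each, of 12 arrays in the whole series, and they were identified by their sample labels. All embryos were from ICR mice, and total RNA of each sample was hybridised to an Affymetrix Mouse Genome 430 2.0 array. Control embryos had no inhibitor; the treated ones were held at 4 cells with 20 µM U0126, which blocks the kinases that activate ERK, and were then freed of the arrest. The released group was therefore collected 1 day later than its control, and day of collection and U0126 history cannot be told apart. The length of the treatment and the time since release are not given in the sources used here. For reference the text also uses control embryos of day 1.5 (2 cells) and day 3.5 (morula to blastocyst), U0126-treated embryos of day 2.5 (4 cells) and released embryos of day 4.5 (morula to blastocyst), each with 2 arrays. The submitters describe the work as done in 2 separate experiments. The p-values measure the spread between these arrays, and the labels do not give which animals each array drew on.

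In the preimplantation embryo, stored oocyte transcripts are degraded while the embryo's own genome is switched on, and the 8-cell embryo then compacts and its cells become polarised. Outer cells form the trophectoderm, an epithelium that later pumps fluid into the blastocoel, and inner cells form the inner cell mass, which is divided into epiblast and primitive endoderm. The ERK pathway runs from growth factor receptors through Ras, Raf and MEK kinases to ERK, and in this embryo it is best known for driving inner cells towards primitive endoderm. Among its targets are early response transcription factors and feedback inhibitors that damp the pathway.

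Levels are given as log2(intensity + 1), and differences as released day 3.5 minus control day 2.5 on that scale, with the standard error of the fit. A gene rose or fell where limma's moderated test gave a Benjamini-Hochberg adjusted p under 0.05 over all 9929 tested genes. The arrays of a pair correlated with r = 0.973 in the released and r = 0.977 in the control group, and arrays of different groups here with r from 0.923 to 0.942, over the tested genes. The released arrays correlated with those of control day 3.5 embryos at r from 0.957 to 0.975. Oocyte and embryo genes (Pou5f1, Dppa3, Zp3, Dppa5a and Tdgf1) were all at a level of 5 or more, and 0 of these 5 changed (1 was called lower with a replicate block or with median centring). Of the markers of other cells, 0 of 9 for cumulus and granulosa cells, 0 of 6 for sperm and 0 of 5 for fibroblasts reached 5 on any of the 4 arrays. Oviduct epithelium had 1 of 5, Ovgp1, at 4.47 and 5.37 in controls and 4.24 and 4.26 in released embryos. Blood and immune cells had 1 of 6, the macrophage gene Cd68, at 4.62 and 4.31 in controls and 5.64 and 5.49 in released embryos (1.10 ± 0.40, adjusted p = 0.0996, or 0.0164 with a replicate block). Across all groups Cd68 was highest in U0126-treated embryos, at 7.29 and 6.50. The summed intensity of the blood and immune list was 61.0 to 65.0 in controls and 81.2 to 87.4 in released embryos, and that of the oviduct list 54.9 to 74.9 and 46.7 to 47.4. Their part in the results was not tested.

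In released embryos 854 genes were higher and 398 lower, together 12.6% of the tested genes (8.6% higher and 4.01% lower). The changes were large: 268 genes rose and 64 fell by more than 2 log2 units, and the extremes were 5.41 and -4.43. Among the rising genes were keratins, epithelial junction genes, Nanog, enzymes of glycolysis and genes of the 2-cell stage, and among the falling ones stored oocyte transcripts. Of the risers, 311 had a control level under 5 on both arrays, and of the fallers 87 had a released level under 5, so that the size of those differences rests on signal near background. The median difference over all tested genes was 0.09, and 59.8% of them had groups that did not overlap, as had all 1252 called genes. With each array's median set equal, the median was -0.11 and the split became 606 higher and 587 lower, or 50.8% higher in place of 68.2%. A replicate block, which compares arrays of the same number, gave 1313 higher and 704 lower. Without control replicate 1 the count was 530, without control replicate 2 it was 330, without released replicate 1 it was 576 and without released replicate 2 it was 267.

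**Figure D1:**
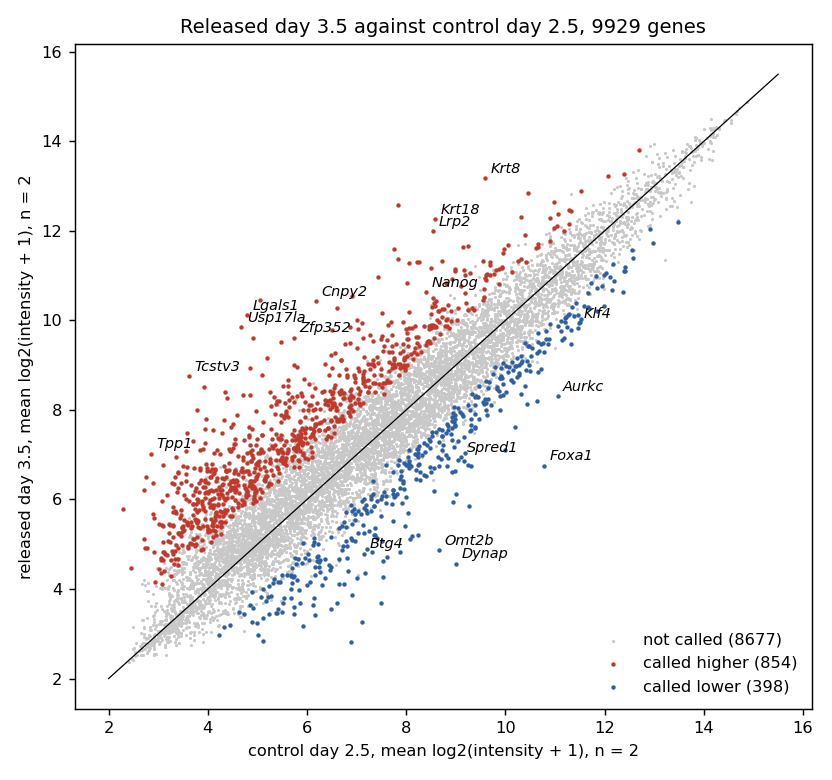
Mean level of each of the 9929 tested genes in control day 2.5 embryos (x axis) against released day 3.5 embryos (y axis), both as log2(intensity + 1) with 2 arrays a group; the line marks equal levels. Red points are the 854 genes called higher and blue points the 398 called lower, with Krt8 far up at high signal and Dynap, Foxa1 and Omt2b far below the line.

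Many trophectoderm genes rose after release. Of the 23 tested genes of this list, 10 rose and 0 fell, with a median difference of 1.77 against 0.09 for all genes. The shares over all tested genes were 8.6% higher and 4.01% lower. Leaving out each of the 4 arrays in turn, 8 or 9 of them rose. Krt8, which with its partner Krt18 builds the first keratin filaments of the embryo, had levels of 9.98 and 9.19 in control and 13.18 and 13.17 in released embryos. That is a 12-fold difference (3.59 ± 0.42 log2, adjusted p = 0.00139). Krt18 had levels of 9.02 and 8.13 in control and 12.23 and 12.29 in released embryos (3.68 ± 0.59, adjusted p = 0.00487). In neither keratin gene did the groups overlap, and the released arrays lay closer together than the control arrays. Krt7, a further keratin of simple epithelia, was not above a level of 5 in controls (3.61 and 4.17) and was at 5.98 and 5.96 after release (2.08 ± 0.32, adjusted p = 0.00395).

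Transcription factors that specify the trophectoderm rose in part. Gata3 had levels of 7.74 and 6.51 in control and 9.80 and 9.40 in released embryos (2.48 ± 0.42, adjusted p = 0.00653). Cdx2, needed to keep the lineage, had 7.69 and 7.13 against 9.46 and 8.91 (1.77 ± 0.35, adjusted p = 0.0111), with no overlap. Eomes, which acts beside Cdx2 in trophoblast, lay near 5 in controls (4.78 and 5.02) and at 7.51 and 7.62 in released embryos (2.67 ± 0.64, adjusted p = 0.0236). Id2, an inhibitor of basic helix-loop-helix factors and an early mark of outer cells, was at 7.87 and 7.0 against 10.58 and 11.38 (3.55 ± 0.44, adjusted p = 0.00167). The fatty acid binding protein gene Fabp3 (3.55 ± 0.52, adjusted p = 0.00323), the endocytic receptor gene Lrp2 (3.45 ± 0.43, adjusted p = 0.0017) and the glucose transporter gene Slc2a3 (2.39 ± 0.32, adjusted p = 0.00224) rose too. Tead4 (-0.58 ± 0.47, adjusted p = 0.469), which acts upstream of Cdx2, and Tfap2c (-0.25 ± 0.26, adjusted p = 0.57) did not pass. Elf5, a factor of later trophoblast, was at 2.50 on both control arrays and at 2.91 and 3.41 after release, all near background. Cdx2 lost its call without control replicate 2 (adjusted p = 0.086) and without released replicate 1 (adjusted p = 0.0709), and Eomes without any 1 of the 4 arrays (adjusted p from 0.085 to 0.115).

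The upstream sequences of the keratin pair, of Cdx2 and Gata3 and, for contrast, of the 2-cell gene Zfp352 are shown because these genes all rose and their promoters could be searched for the same motifs. Krt8 and Krt18 lie on opposite strands of chromosome 15, with their starts 23.9 kb apart. Each run is the 250 bases before 1 start that the RefSeq promoter table lists for the gene, on assembly GRCm38.p6, read 5′ to 3′ on the gene's own strand, with capitals for matches to the AP-2 motif GCCNNNGGC on either strand, the only searched motif found in them. They lie at chr15:102004343-102004592 (minus strand, Krt8), chr15:102027966-102028215 (plus, Krt18), chr5:147307250-147307499 (minus, Cdx2), chr2:9878601-9878850 (minus, Gata3) and chr4:90218570-90218819 (plus, Zfp352).
Krt8: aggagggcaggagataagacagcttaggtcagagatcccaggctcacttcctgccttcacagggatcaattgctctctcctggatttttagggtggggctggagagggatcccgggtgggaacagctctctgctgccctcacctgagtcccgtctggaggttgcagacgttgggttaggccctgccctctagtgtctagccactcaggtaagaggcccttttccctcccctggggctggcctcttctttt
Krt18: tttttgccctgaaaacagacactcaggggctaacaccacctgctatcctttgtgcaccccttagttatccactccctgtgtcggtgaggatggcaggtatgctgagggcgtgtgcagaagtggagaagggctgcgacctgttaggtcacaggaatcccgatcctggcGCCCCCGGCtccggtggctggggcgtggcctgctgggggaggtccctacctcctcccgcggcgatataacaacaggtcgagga
Cdx2: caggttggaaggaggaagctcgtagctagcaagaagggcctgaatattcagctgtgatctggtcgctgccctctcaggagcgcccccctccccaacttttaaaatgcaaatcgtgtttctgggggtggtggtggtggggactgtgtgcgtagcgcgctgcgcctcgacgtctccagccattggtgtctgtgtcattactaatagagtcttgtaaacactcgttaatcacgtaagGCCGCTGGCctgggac
Gata3: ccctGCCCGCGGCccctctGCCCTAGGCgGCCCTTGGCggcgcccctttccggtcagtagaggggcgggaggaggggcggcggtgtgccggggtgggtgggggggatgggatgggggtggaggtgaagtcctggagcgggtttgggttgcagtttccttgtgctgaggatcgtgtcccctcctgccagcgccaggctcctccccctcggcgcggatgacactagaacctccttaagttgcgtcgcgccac
Zfp352: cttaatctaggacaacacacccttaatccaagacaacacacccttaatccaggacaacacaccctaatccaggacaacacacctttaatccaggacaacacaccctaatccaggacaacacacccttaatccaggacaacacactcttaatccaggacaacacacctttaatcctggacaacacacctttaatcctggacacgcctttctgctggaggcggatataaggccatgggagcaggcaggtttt
Krt18 has 1 match at position -83 from the start, Cdx2 has 1 at -16, and Gata3 has 3 at -246, -231 and -221. Krt8 and Zfp352 have none in these windows. The Gata3 window lies inside the annotated span of the gene (chr2:9857078-9887953), so it precedes that listed start and not the gene as a whole.

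RefSeq promoters of 300 bases (250 before and 50 after the start) were matched for 8149 of the tested genes, among them 696 that rose and 324 that fell, with the first start in the table used for genes with several. Each motif was searched on both strands, separately, so that matches of different motifs may overlap. The TEAD motif GGAATG was in 13.9% of the promoters of rising, 9.57% of falling and 11.4% of all tested genes. AP-2 matches were in 24.3%, 25.6% and 25.7% in the same order, and the ETS motif CCGGAAGT, of the family to which several ERK-regulated factors belong, was in 7.18%, 6.79% and 9.38%. In the same order, the CRE motif TGACGTCA was in 2.87%, 3.40% and 3.41%, and the E-box CACGTG in 10.2%, 12.3% and 10.8%, and an interferon response motif in 2.01%, 2.78% and 2.69%. The longer serum response motif was in 0 of the rising or falling and 0.0245% of all tested promoters, and the Dux motif in 0.144%, 0 and 0.0491%. These are descriptions without a test.

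Genes of cell junctions and apical polarity also rose, 10 of 27 tested with 0 lower and a median of 0.81. Beside them stand 8.6% higher and 4.01% lower of all tested genes. Ezr encodes ezrin, which ties the apical membrane to actin, and had levels of 5.23 and 5.26 in control and 8.52 and 8.27 in released embryos (3.15 ± 0.44, adjusted p = 0.00256). Slc9a3r1, whose product binds ezrin, had 6.81 and 6.75 against 9.11 and 9.82 (2.69 ± 0.36, adjusted p = 0.00223). Epcam, an epithelial adhesion molecule, had 8.44 and 8.09 against 11.27 and 11.36 (3.05 ± 0.42, adjusted p = 0.00243). The tight junction gene Cldn6 was below 5 in controls (4.19 and 3.74) and at 7.31 and 6.30 after release (2.84 ± 0.45, adjusted p = 0.00455). A further 4 of the risers were desmosome genes: Dsp with 2.82 ± 0.63 (adjusted p = 0.0175), Dsg2 with 2.59 ± 0.48 (adjusted p = 0.00866), Dsc2 with 2.20 ± 0.45 (adjusted p = 0.0124) and Pkp2 with 1.84 ± 0.41 (adjusted p = 0.0172). Myh9 of non-muscle myosin rose as well (1.77 ± 0.38, adjusted p = 0.0149). Cdh1, the E-cadherin gene of compaction, did not pass (0.36 ± 0.31, adjusted p = 0.502), nor did Cldn4 (0.99 ± 0.56, adjusted p = 0.276), where replicate 1 was higher than replicate 2 in both groups (8.93 and 7.74 in controls, 9.94 and 8.70 after release). The count of risers was 4, 5 and 4 without control replicate 1, control replicate 2 and released replicate 2, and without released replicate 1 it was 10; Ezr, Slc9a3r1, Epcam and Cldn6 were called each time.

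Of the inner cell mass and pluripotency genes, 2 of 24 tested rose and 3 fell, with a median of -0.11. The share that rose was near the 8.6% of all genes, and 4.01% of all genes fell. Nanog, the epiblast factor, had levels of 8.56 and 8.23 in control and 10.90 and 10.36 in released embryos, a 4.71-fold difference (2.24 ± 0.32, adjusted p = 0.00292). Sox2, a partner of Oct4, was below 5 in controls (3.85 and 4.15) and at 5.90 and 6.86 after release (2.37 ± 0.59, adjusted p = 0.0263). Klf4 went the other way, from 11.23 and 11.73 to 9.91 and 9.96 (-1.55 ± 0.38, adjusted p = 0.0247), as did its relative Klf2 (-1.53 ± 0.38, adjusted p = 0.0265) and the nuclear receptor gene Esrrb (-1.94 ± 0.47, adjusted p = 0.0248). Esrrb was at 7.99 and 8.00 in controls and at 6.81 and 5.30 in released embryos, with replicate 2 the lower of the released arrays. Pou5f1, the Oct4 gene, had 11.43 and 10.53 against 11.77 and 10.64 and did not pass (0.23 ± 0.46, adjusted p = 0.795); replicate 1 was the higher array in both groups. Tfcp2l1 (0.96 ± 0.38, adjusted p = 0.12), Gdf3 (0.46 ± 0.43, adjusted p = 0.526) and Fgf4 (-0.35 ± 0.37, adjusted p = 0.585), which encodes the ligand that inner cells send to primitive endoderm precursors, did not pass. With a replicate block 5 genes of the list fell, as they did with median centring. Without control replicate 1, control replicate 2 or released replicate 2, Nanog was the only riser and 0 genes fell, and without released replicate 1 Nanog and Sox2 rose and 2 fell.

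Of 15 tested primitive endoderm markers 3 rose and 1 fell, beside 8.6% and 4.01% of all tested genes, with a median of 0.74. The risers were Lrp2, which stands also in the trophectoderm list, and both collagen IV genes, which encode chains of the basement membrane. Col4a1 was at 6.63 and 6.98 in control and 8.75 and 8.71 in released embryos (1.92 ± 0.27, adjusted p = 0.0026), and Col4a2 at 4.26 and 4.00 against 7.14 and 6.95 (2.92 ± 0.40, adjusted p = 0.00232). The lineage factors did not rise with them. Gata4 fell from 6.32 and 5.41 to 4.18 and 3.19 (-2.18 ± 0.45, adjusted p = 0.0127), a call lost without control replicate 1 (adjusted p = 0.0859) and without released replicate 2 (adjusted p = 0.107). Gata6, the earliest of them, had 11.08 and 10.56 against 10.88 and 9.76 (-0.50 ± 0.43, adjusted p = 0.498), Sox17 lay under 5 on all 4 arrays, and the receptor gene Pdgfra (-1.44 ± 0.49, adjusted p = 0.0841) and Dab2 (1.43 ± 0.51, adjusted p = 0.0934) did not pass. Dab2 passed with the mean of its probe sets (adjusted p = 0.013) and with only the 4 arrays compared (adjusted p = 0.0497). The FGF receptor genes Fgfr2 (-0.11 ± 0.36, adjusted p = 0.883) and Fgfr1 (0.00 ± 0.52, adjusted p = 1.0) had groups whose arrays overlapped. In these bulk samples fewer cells of a type and less RNA per cell cannot be told apart.

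**Figure D2:**
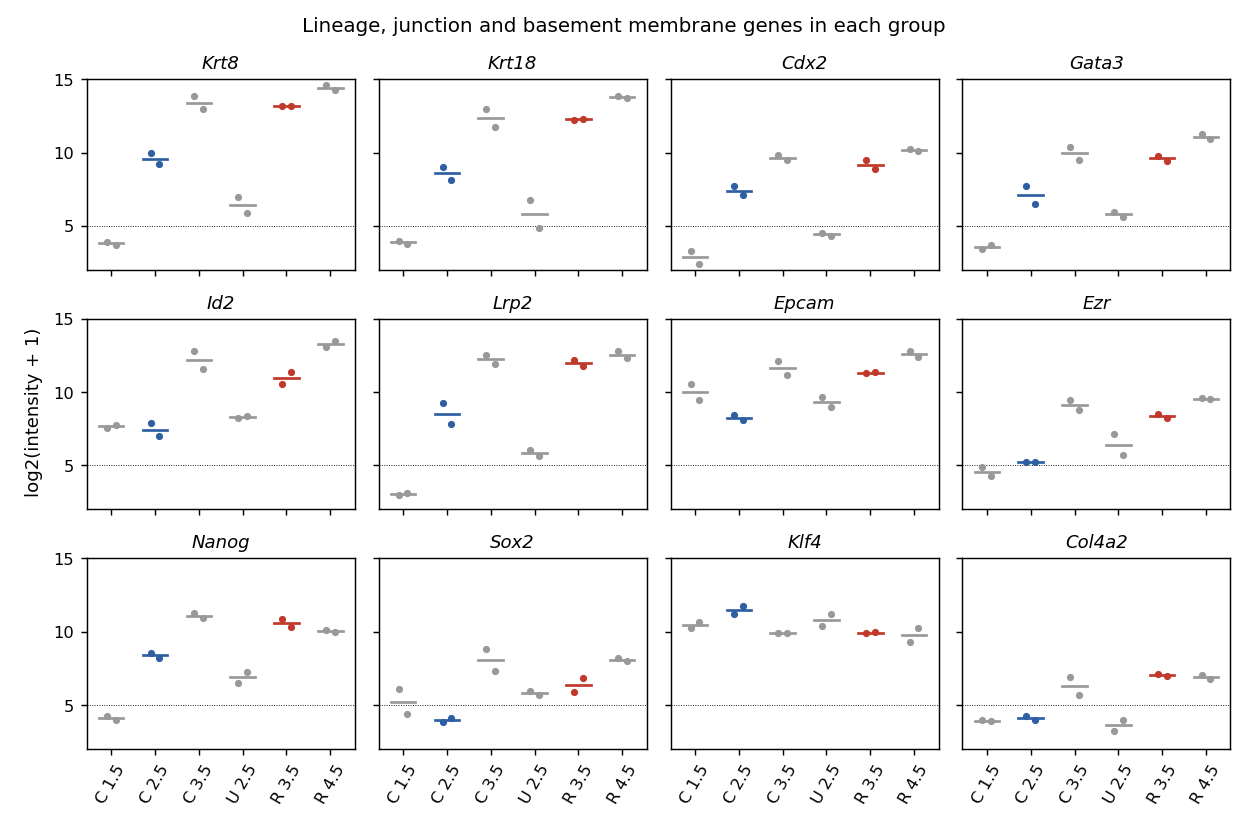
Levels of 12 genes of the trophectoderm, junctions, inner cells and basement membrane, as log2(intensity + 1), on each of the 12 arrays (points; bars are group means). C is control, U is U0126-treated and R is released, with the day; control day 2.5 is blue, released day 3.5 is red, and the dotted line marks the level of 5 used for filtering. In 11 of the panels the red points lie above the blue ones, and in Klf4 below.

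Genes for the pump and channels that later fill the blastocoel did not rise as a group: 1 of 7 tested rose and 2 fell, with a median of -0.88. The subunit gene Atp1b1 of the sodium pump was at 9.35 and 9.03 in control and 10.43 and 10.78 in released embryos (1.42 ± 0.32, adjusted p = 0.0185). The sodium, potassium and chloride cotransporter gene Slc12a2 fell from 12.33 and 12.42 to 10.74 and 10.51 (-1.75 ± 0.39, adjusted p = 0.0176), and the aquaporin gene Aqp11 fell from 6.61 and 6.82 to 5.09 and 4.64 (-1.85 ± 0.40, adjusted p = 0.0162). Aqp3 did not pass (0.87 ± 0.49, adjusted p = 0.271). A replicate block gave 4 falling genes, and the calls of Atp1b1 and Slc12a2 were lost without any 1 of the 4 arrays (adjusted p from 0.0503 to 0.126 and from 0.0594 to 0.108), that of Aqp11 without each array except released replicate 1 (adjusted p from 0.0599 to 0.113). In the Hippo pathway, which couples cell position to Cdx2, 1 of 18 genes rose and 1 fell, with a median of -0.61. Over all tested genes 8.6% rose and 4.01% fell. Tead2, which encodes a DNA-binding partner of Yap, was under 5 in controls (3.84 and 3.74) and at 5.53 and 5.40 after release (1.68 ± 0.48, adjusted p = 0.0473). Mob1b, a kinase cofactor of the pathway, fell from 9.24 and 9.38 to 7.55 and 7.78 (-1.65 ± 0.30, adjusted p = 0.00855). Tead2 lost its call without any 1 array (adjusted p from 0.141 to 0.178). Mob1b lost it without control replicate 2 (adjusted p = 0.0618), without released replicate 1 (adjusted p = 0.0516) and with the mean of its probe sets (adjusted p = 0.123).

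A small group of genes that normally mark the 2-cell stage was high in released embryos. Of the 11 tested genes of the list, 5 rose and 0 fell, beside 8.6% and 4.01% of all tested genes, while the median was -0.05. Zfp352, a zinc finger gene of the 2-cell burst of transcription, was at 6.53 and 4.96 in controls of day 2.5 and at 9.50 and 9.74 in released embryos, a 14.7-fold difference (3.88 ± 0.79, adjusted p = 0.0123) that ranged from 3.09 to 4.66 log2 units with 1 array left out. Usp17la, which encodes a deubiquitinating enzyme, was at 4.76 and 4.60 against 9.01 and 10.69 (5.17 ± 1.02, adjusted p = 0.011). Tcstv3 had 3.63 and 3.62 against 8.42 and 9.09 (5.13 ± 0.90, adjusted p = 0.00704), and Tcstv1 had 4.67 and 4.01 against 8.28 and 8.51 (4.05 ± 0.72, adjusted p = 0.00739). The last was Tdpoz1 with 4.05 and 4.14 against 6.23 and 7.33 (2.69 ± 0.71, adjusted p = 0.0333). Counted from a level of 5 upwards, the differences of Usp17la, Tcstv3 and Tcstv1 were 4.85, 3.76 and 3.39. These genes are members of families with close copies, so that a probe set may read several of them.

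The mean levels of Zfp352 were 11.13 in 2-cell controls, 8.55 under U0126, 9.62 in released day 3.5 embryos, 3.51 in control embryos of the same day and 5.72 in released embryos of day 4.5. Tcstv1 had means of 8.62 in 2-cell controls, 5.15 under U0126, 8.40 after release and 2.73 in control day 3.5 embryos. Against controls of the same day, with which the comparison shares the released arrays, Zfp352 was higher by 6.11 ± 0.79 (adjusted p = 0.0102), Tcstv1 by 5.67 ± 0.72 (adjusted p = 0.0102), Tcstv3 by 6.12 ± 0.90 (adjusted p = 0.0234) and Usp17la by 6.81 ± 1.02 (adjusted p = 0.0234). In that comparison 31 genes, or 0.312%, passed over the whole array. The number of 2-cell genes that rose against control day 2.5 was 4 without control replicate 1, 1 without control replicate 2, 4 without released replicate 1 and 0 without released replicate 2. Against the same-day controls, Tcstv1, Tcstv3 and Usp17la lost their calls without any 1 of the 4 arrays (adjusted p from 0.0503 to 0.16, from 0.0785 to 0.301 and from 0.0566 to 0.301). Zfp352 lost it without each array except control day 3.5 replicate 2 (adjusted p from 0.0566 to 0.215).

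Of 34 tested maternal oocyte genes 7 fell, 3 rose and 24 did not pass, with a median of -0.60. Over all tested genes 4.01% fell and 8.6% rose, and the share of the list that rose was near the latter. Btg4, which brings a deadenylase to maternal messages, was at 6.97 and 7.35 in control and at 4.79 on both released arrays (-2.37 ± 0.29, adjusted p = 0.00159). Omt2a had 7.83 and 7.24 against 4.18 and 4.33 (-3.28 ± 0.31, adjusted p = 0.000642), and Omt2b had 8.96 and 8.36 against 5.68 and 4.04 (-3.80 ± 0.49, adjusted p = 0.00185). For comparison, Btg4 stood at a mean of 13.45 in 2-cell controls and 9.62 under U0126. Also lower were Oog3 (-2.12 ± 0.56, adjusted p = 0.0335), Nlrp14 (-1.66 ± 0.32, adjusted p = 0.0104), the arginine deiminase gene Padi6 (-1.21 ± 0.31, adjusted p = 0.029) and Nlrp5 of the subcortical maternal complex (-1.15 ± 0.26, adjusted p = 0.0176). The zona pellucida gene Zp3 did not pass (-0.44 ± 0.47, adjusted p = 0.588). Opposite to these, Ooep and Khdc3 of the same maternal complex rose, by 1.58 ± 0.41 (adjusted p = 0.033) and 1.39 ± 0.37 (adjusted p = 0.0351), as did the oocyte transcription factor gene Sohlh2 (1.96 ± 0.41, adjusted p = 0.014). There were 5 falling genes and 1 rising gene without control replicate 1, and without each of the other arrays 4 falling and 0 rising; Btg4, Omt2a and Omt2b were called each time.

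ERK target genes moved in both directions. Of 20 tested, 4 rose and 3 fell, beside 8.6% and 4.01% of all tested genes, with a median of 0.44. The risers were early response genes. Jun was at 5.20 and 5.34 in control and 7.27 and 7.87 in released embryos (2.30 ± 0.33, adjusted p = 0.00313), and Fos, its partner in AP-1, at 3.74 and 4.16 against 5.65 and 5.82 (1.78 ± 0.37, adjusted p = 0.0132). Egr1 had 4.39 and 4.14 against 6.20 and 6.04 (1.85 ± 0.48, adjusted p = 0.0324), and Ier3 had 4.76 and 4.33 against 6.53 and 6.04 (1.74 ± 0.48, adjusted p = 0.0385). For Fos, Egr1 and Ier3 the control arrays were all under 5. Under U0126 the mean levels were 5.46 for Jun, 5.71 for Fos, 7.18 for Egr1 and 5.46 for Ier3. In released day 3.5 embryos the means were 7.57, 5.73, 6.12 and 6.29 in the same order. Egr1 was thus lower after release than under U0126 (8.02 and 6.35), and it was at 8.33 and 9.06 in 2-cell controls. Whether the end of the ERK block caused the rises over control day 2.5 was not tested.

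Feedback inhibitors of the pathway were among the genes that fell. Spred1, which restrains Raf activation, dropped from 9.21 and 9.01 to 7.05 and 6.84 (-2.16 ± 0.31, adjusted p = 0.00282). Dusp6, a phosphatase of ERK, went from 6.46 and 5.95 to 4.89 and 4.54 (-1.49 ± 0.34, adjusted p = 0.0182), and Myc from 8.00 and 8.09 to 6.80 and 6.59 (-1.35 ± 0.28, adjusted p = 0.0127). Spry2 (-0.65 ± 0.62, adjusted p = 0.536), Spry4 (-0.49 ± 0.29, adjusted p = 0.289) and the ETS factor gene Etv5 (0.20 ± 0.42, adjusted p = 0.805) did not pass. Of 17 tested genes of the cascade itself, 0 rose and 1 fell: Sos2, a Ras exchange factor gene, from 8.59 and 8.82 to 6.87 and 6.95 (-1.79 ± 0.37, adjusted p = 0.0132), and at an unadjusted p under 0.05 there were 2. The shares called over all tested genes were 8.6% higher and 4.01% lower. Jun and Spred1 were called without any 1 of the 4 arrays. Fos (adjusted p from 0.0507 to 0.0897), Egr1 (0.0954 to 0.152), Ier3 (0.0904 to 0.19), Dusp6 (0.0509 to 0.122) and Sos2 (0.0512 to 0.0852) lost their calls without each of them. Myc was called without released replicate 1 and lost without the others (adjusted p up to 0.0941). Against control day 3.5 embryos Egr1 was higher by 2.81 ± 0.48 (adjusted p = 0.0471), a call also lost without any 1 array, control replicate 1 giving 0.301.

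**Figure D3:**
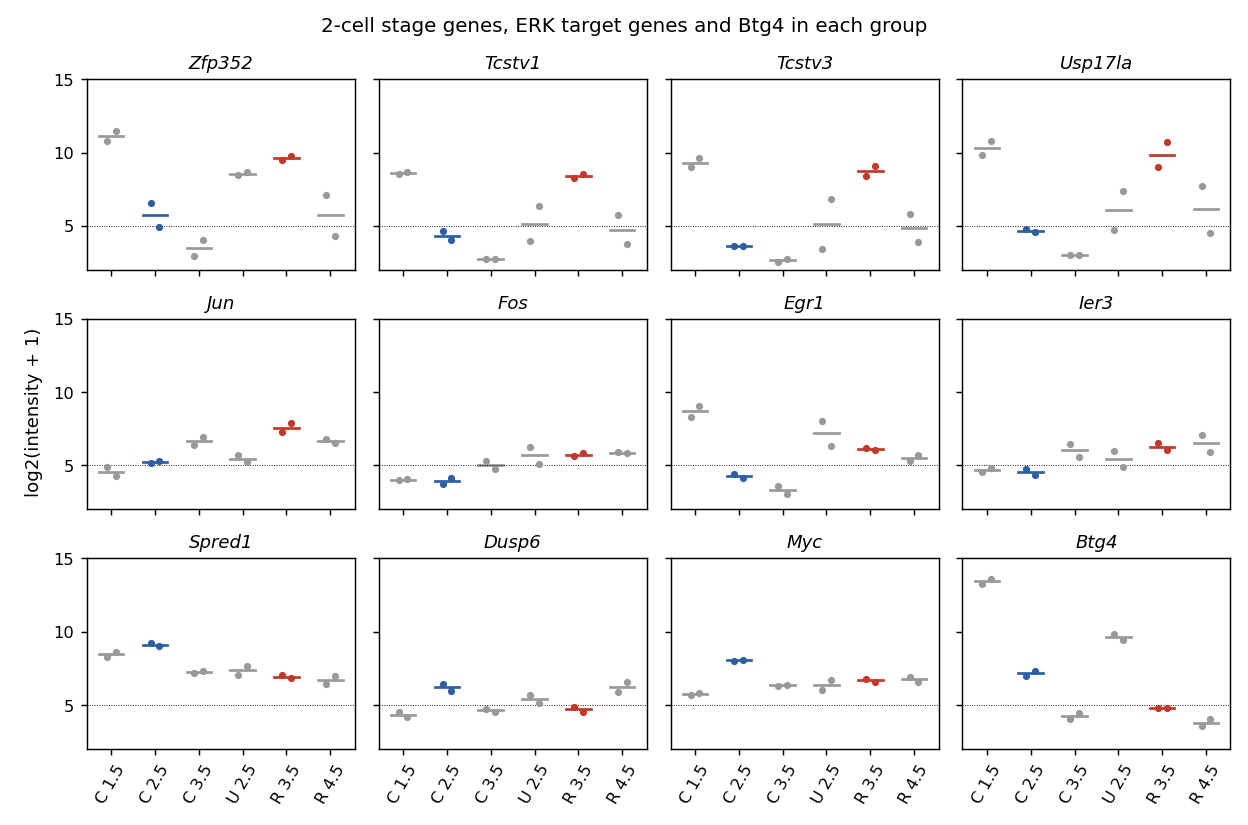
Levels of 4 genes of the 2-cell stage, 7 ERK target genes and the oocyte gene Btg4, as log2(intensity + 1), on each of the 12 arrays (points; bars are group means). Groups and colours are C for control, U for U0126-treated and R for released, with the day, blue for control day 2.5 and red for released day 3.5. In the upper row the red points lie above both the blue and the control day 3.5 points. In the Zfp352 panel they lie below the mean of the 2-cell controls.

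Of the p53 targets and cell cycle inhibitors, 7 of 29 tested rose and 0 fell, with a median of 0.61. Among all tested genes 8.6% rose and 4.01% fell. Ccng2, an atypical cyclin gene linked to arrest, was under 5 in controls (4.67 and 4.35) and at 6.96 and 8.42 after release (3.18 ± 0.57, adjusted p = 0.0075). Gadd45a, a damage response gene, was at 3.78 and 3.59 against 5.07 and 5.73 (1.72 ± 0.32, adjusted p = 0.00865), or 0.40 counted from a level of 5. Ccng1 (1.97 ± 0.47, adjusted p = 0.0237), the kinase inhibitor gene Cdkn2c (1.90 ± 0.46, adjusted p = 0.024), Zmat3 (1.64 ± 0.43, adjusted p = 0.0335), Perp (1.55 ± 0.43, adjusted p = 0.0398) and Btg2 (1.53 ± 0.38, adjusted p = 0.0255) rose as well. Counted from a level of 5, the rise of Cdkn2c was 0.38. Under U0126 the mean of Ccng2 was 7.67, beside 7.69 after release, and that of Gadd45a was 5.75, beside 5.40. Ccng1 (8.31 and 11.13), Cdkn2c (4.37 and 5.38) and Btg2 (5.38 and 6.53) had lower means under U0126 than after release. In control embryos of day 1.5 and day 3.5 the means were 8.73 and 6.86 for Ccng2 and 6.15 and 10.31 for Ccng1. They were 5.89 and 5.64 for Cdkn2c and 4.97 and 5.85 for Btg2. Against control day 3.5 embryos Ccng2, Ccng1, Cdkn2c and Btg2 did not pass (limma, adjusted p from 0.845 to 0.999). Cdkn1a, the p21 gene, had 8.75 and 8.48 against 9.74 and 9.73 and narrowly missed (1.12 ± 0.33, adjusted p = 0.0515), as did Cdkn1c (1.36 ± 0.40, adjusted p = 0.0509). Both passed with a replicate block (adjusted p = 0.0283 and 0.0174) and with a filter at a level of 7 (0.0425 and 0.0433), and with the block 10 genes of the list rose and 1 fell. The number of risers was 3 without control replicate 1, 0 without control replicate 2, 4 without released replicate 1 and 0 without released replicate 2.

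Genes of DNA replication and mitosis changed in few cases, beside 12.6% of all tested genes. Of 46 replication genes 1 rose, Rpa3 of the single-strand binding complex (1.22 ± 0.35, adjusted p = 0.0447), and 1 fell, the thymidylate synthase gene Tyms (-1.32 ± 0.37, adjusted p = 0.043). The median of 0.16 turned to -0.04 with median centring. Of 36 mitosis genes Ccnb2 (1.18 ± 0.27, adjusted p = 0.0209) and Cenpf (0.92 ± 0.26, adjusted p = 0.0453) rose and the phosphatase gene Cdc25b fell (-1.29 ± 0.32, adjusted p = 0.0269), with a median of -0.14. Cenpf did not pass with the mean of its probe sets (adjusted p = 0.306). With median centring 0 mitosis genes rose and 3 fell, Ccnb2 and Cenpf no longer passing. The replicate block gave 5 rising replication genes, and 3 rising and 4 falling mitosis genes. In both lists 0 genes passed without control replicate 1, control replicate 2 or released replicate 2; without released replicate 1, 1 replication gene and 1 mitosis gene rose and 1 mitosis gene fell. Ccnd1 did not pass (-0.81 ± 0.40, adjusted p = 0.215).

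Stress genes rose in 6 of 32 tested, beside 8.6% of all tested genes, with 0 lower, beside 4.01%, and a median of 0.67. The small heat shock protein gene Hspb1 was at 7.48 and 6.34 in control and 10.93 and 10.17 in released embryos (3.64 ± 0.71, adjusted p = 0.0104). Hmox1, the haem oxygenase gene of the oxidative stress response, was near background in controls (2.79 and 2.63) and at 6.49 and 5.95 after release (3.51 ± 0.48, adjusted p = 0.0025), or 1.22 counted from a level of 5. Cat, which encodes catalase, was at 7.14 and 6.93 against 9.34 and 10.26 (2.76 ± 0.32, adjusted p = 0.00139). In control day 3.5 embryos Cat was at 10.40 and 10.07. Xbp1 of the unfolded protein response (2.22 ± 0.43, adjusted p = 0.00992), the superoxide dismutase gene Sod2 (1.19 ± 0.27, adjusted p = 0.0182) and the chaperonin gene Hspe1 (1.06 ± 0.31, adjusted p = 0.0485) also rose, and Sod2 did not pass with the mean of its probe sets (adjusted p = 0.104). Outside the list, Cryab, of the same small heat shock family as Hspb1, rose too (3.67 ± 0.42, adjusted p = 0.00128). Its level in control day 3.5 embryos was 9.34 and 9.57. None of the rising stress genes named here, nor Cryab, was called against control day 3.5 embryos. Of the list, 3 genes rose without control replicate 1, 2 without control replicate 2, 4 without released replicate 1 and 3 without released replicate 2; Hmox1 and Cat were called each time. Hspb1 lost its call without control replicate 2 (adjusted p = 0.0801) and released replicate 1 (adjusted p = 0.0609).

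Of 20 tested genes of glucose uptake and glycolysis 5 rose, 1 fell and 14 did not pass, with a median of 0.75. The share that fell was near the 4.01% of all tested genes, of which 8.6% rose. The glucose transporter genes Slc2a1 (8.11 and 7.94 in control, 10.46 and 11.21 in released embryos) and Slc2a3 (10.54 and 10.36 against 12.85 and 12.83) rose by 2.81 ± 0.53 (adjusted p = 0.00892) and 2.39 ± 0.32 (adjusted p = 0.00224). Tpi1, the triose phosphate isomerase gene, had 6.10 and 5.02 against 8.16 and 8.13 (2.58 ± 0.37, adjusted p = 0.00297). Pkm of pyruvate kinase (2.74 ± 0.73, adjusted p = 0.0356) and Pgk1 (1.52 ± 0.34, adjusted p = 0.0177) rose as well, while Pfkfb3, whose product sets the activator of phosphofructokinase, fell from 7.03 and 6.97 to 4.38 and 4.10 (-2.76 ± 0.47, adjusted p = 0.00653). With a replicate block 9 rose. Without released replicate 2 there were 2 risers and 0 fallers, and 3 or 4 risers without each of the other arrays. Pkm lost its call without any 1 array (adjusted p from 0.0561 to 0.209), and Slc2a1 without control replicate 2 (adjusted p = 0.0598) and released replicate 2 (adjusted p = 0.0772).

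Of 66 tested oxidative phosphorylation genes 5 rose, a share near the 8.6% of all genes. Their median was 0.55 against 0.09, and 64 had a positive difference, against 55.6% of all tested genes. The 5 were Ndufab1 (1.29 ± 0.30, adjusted p = 0.0197), Sdhb (1.20 ± 0.28, adjusted p = 0.0216), Ndufa5 (1.09 ± 0.25, adjusted p = 0.0207), Ndufa4 (1.02 ± 0.28, adjusted p = 0.0383) and Cox5b (0.88 ± 0.23, adjusted p = 0.0319). They encode subunits of complexes I, II and IV. Ndufa5 was at 10.90 and 11.06 in control and 11.85 and 12.28 in released embryos. With a replicate block 21 passed, with median centring 2, without released replicate 1 only 1, and without each of the other arrays 0. Ndufab1 did not pass with the mean of its probe sets (adjusted p = 0.321). Ribosomal protein genes had 0 of 35 called by limma, 0 at an unadjusted p under 0.05, and a median of 0.0046, which was -0.19 with median centring and -0.0019 with quantile normalization.

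In lipid synthesis 4 of 26 genes rose and 0 fell, beside 8.6% and 4.01% of all tested genes, with a median of 0.48. The fatty acid desaturase gene Scd2 was at 7.34 and 8.78 in control and 11.24 and 11.33 in released embryos (3.22 ± 0.51, adjusted p = 0.00455), and its relative Scd1 at 8.00 and 7.87 against 9.66 and 10.25 (2.02 ± 0.37, adjusted p = 0.00857). Insig1, a sterol-regulated brake on cholesterol synthesis (1.77 ± 0.42, adjusted p = 0.023), and the malic enzyme gene Me1 (1.62 ± 0.41, adjusted p = 0.0282) rose too. Lysosome and V-ATPase genes rose in 5 of 35 and fell in 2, beside the same 8.6% and 4.01%, with a median of 0.45. Tpp1, a lysosomal peptidase gene, was near background in controls (3.01 and 2.71) and at 6.56 and 7.49 after release (4.17 ± 0.37, adjusted p = 0.00049), or 2.03 counted from a level of 5. Gusb (2.82 ± 0.58, adjusted p = 0.013), the calcium channel gene Mcoln1 (1.74 ± 0.44, adjusted p = 0.0288), Neu1 (1.66 ± 0.35, adjusted p = 0.0139) and Scarb2 (0.99 ± 0.28, adjusted p = 0.0468) rose, and the cathepsin gene Ctsh (-1.92 ± 0.35, adjusted p = 0.00804) and Lamp2 (-0.97 ± 0.25, adjusted p = 0.0329) fell. With a replicate block 11 rose and 4 fell; with median centring 4 rose and 4 fell. Without control replicate 1, control replicate 2, released replicate 1 and released replicate 2 in turn, 2, 1, 3 and 1 lipid genes and 1, 1, 2 and 2 lysosomal genes rose. Scd2 and Tpp1 were called each time, and Scarb2 did not pass with the mean of its probe sets (adjusted p = 0.158).

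For the lists that follow, the shares called over all tested genes were 8.6% higher and 4.01% lower. Of 18 amino acid transporter genes 2 rose and 1 fell, with a median of 0.27: Slc38a1 (2.34 ± 0.39, adjusted p = 0.00579), Slc7a3 (2.22 ± 0.39, adjusted p = 0.00727) and the taurine transporter gene Slc6a6 (-1.02 ± 0.27, adjusted p = 0.0362). Of 30 chromatin and DNA methylation regulators 2 rose and 1 fell, with a median of -0.25. Uhrf1, which guides maintenance methylation, was at 5.10 and 6.06 in control and 7.78 and 8.08 in released embryos (2.35 ± 0.41, adjusted p = 0.00725), while Dnmt3l (0.99 ± 0.26, adjusted p = 0.035) and the deacetylase gene Sirt1 (-1.14 ± 0.32, adjusted p = 0.0406) changed less. Of 42 ribosome biogenesis genes 1 passed, Wdr43 (-1.34 ± 0.35, adjusted p = 0.0317), a share not above the 4.01% of all genes that fell. Their median was -0.48, and 1 of the 42 had a positive difference, against 55.6% of all tested genes. Of 12 circadian clock genes 3 fell and 0 rose: the nuclear receptor gene Nr1d2 (-1.96 ± 0.40, adjusted p = 0.0126), Cry1 (-1.43 ± 0.37, adjusted p = 0.0317) and Clock (-1.20 ± 0.33, adjusted p = 0.0382), with a list median of -0.22. Clock did not pass with the mean of its probe sets (adjusted p = 0.526), and the clock output gene Dbp was at 6.11 and 4.08 against 5.17 and 6.16. Among 14 Bcl2 family genes the pro-apoptotic gene Bik rose (1.38 ± 0.36, adjusted p = 0.0327) and 0 fell, with a median of -0.18. Bik was at 3.69 and 3.59 in control and 4.89 and 5.16 in released embryos, or 0.026 counted from a level of 5. It did not pass with no filter (adjusted p = 0.063) or with a pseudocount of 16 (adjusted p = 0.0687). Of the genes in this paragraph only Slc7a3 was called without each of the 4 arrays in turn. Without released replicate 2 also Slc38a1 (adjusted p = 0.0514), Uhrf1 (adjusted p = 0.0598) and Nr1d2 (adjusted p = 0.0624) lost their calls, the last also without control replicate 2 (adjusted p = 0.0829) and released replicate 1 (adjusted p = 0.0667). The highest adjusted p with 1 array left out was 0.235 for Clock, 0.211 for Wdr43, 0.192 for Dnmt3l, 0.172 for Cry1, 0.166 for Bik, 0.154 for Sirt1 and 0.149 for Slc6a6. With a replicate block 3 chromatin genes rose and 3 fell, 3 ribosome biogenesis genes fell, 1 clock gene rose, and 2 Bcl2 family genes rose and 1 fell.

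**Figure D4:**
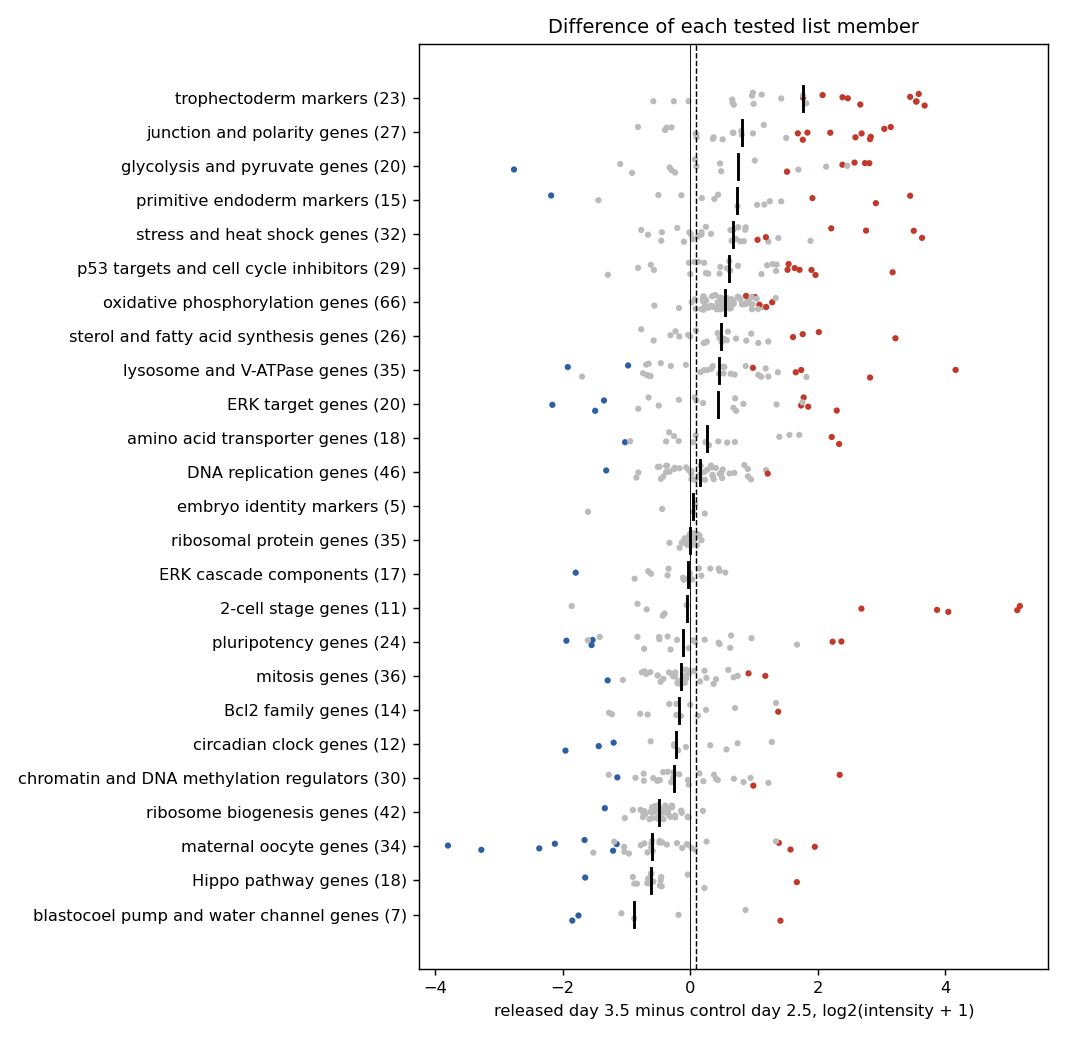
Difference of each tested gene of 25 lists (points), released day 3.5 minus control day 2.5 on the log2(intensity + 1) scale, with the number of tested genes in brackets; the thick bar is the list's median. Red and blue points are called higher and lower, the solid line is 0 and the dashed line the median of 0.09 over all genes. Trophectoderm markers have the highest median, 1.77, and blastocoel pump and water channel genes the lowest, -0.88.

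Among the large rises of genes outside the lists and above 5 on all 4 arrays was that of Cnpy2, which encodes a resident protein of the endoplasmic reticulum, from 6.61 and 5.75 to 10.05 and 10.80 (4.25 ± 0.37, adjusted p = 0.00049). The secreted protease gene Htra1 was at 5.14 and 5.05 in control and 8.26 and 9.31 in released embryos (3.69 ± 0.44, adjusted p = 0.00139). Of genes under 5 in controls, Laptm5, which encodes a lysosomal membrane protein, was at 3.64 and 4.19 against 7.89 and 9.13 (4.60 ± 0.46, adjusted p = 0.000834; 3.51 counted from 5), and the prostaglandin E synthase gene Ptges at 4.60 and 4.17 against 8.27 and 8.25 (3.88 ± 0.42, adjusted p = 0.00109). Pramel18, of the PRAME family, was at 3.93 and 3.65 against 6.84 and 9.13 (4.20 ± 0.69, adjusted p = 0.00554), with replicate 2 the higher of the released arrays. The calls of these 5 genes held without each array in turn.

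Among the falling genes Foxa1, a pioneer transcription factor gene, went from 10.45 and 11.10 to 6.89 and 6.62 (-4.02 ± 0.74, adjusted p = 0.00848). Arg1, the arginase gene, went from 9.62 and 8.93 to 6.18 and 5.51 (-3.43 ± 0.51, adjusted p = 0.00346), and the zinc finger gene Zfp644 from 9.91 and 10.47 to 7.84 and 7.40 (-2.57 ± 0.39, adjusted p = 0.00417). Enpp3, an ectonucleotidase gene (-2.99 ± 0.57, adjusted p = 0.00992), Gdap1 of the outer mitochondrial membrane (-2.94 ± 0.55, adjusted p = 0.00921) and Khdc1b (-2.87 ± 0.51, adjusted p = 0.0075) fell by like amounts. Of genes under 5 after release, Dynap dropped from 9.23 and 8.77 to 4.81 and 4.32 (-4.43 ± 0.32, adjusted p = 0.000415), or -4.0 counted down to a level of 5. Accsl dropped from 7.19 and 7.81 to 4.18 and 3.19 (-3.81 ± 0.45, adjusted p = 0.00139), the bromodomain gene Brdt from 7.12 and 7.23 to 4.31 and 4.41 (-2.82 ± 0.27, adjusted p = 0.000742), and the chondromodulin gene Cnmd from 7.70 and 7.36 to 4.71 and 4.53 (-2.91 ± 0.56, adjusted p = 0.00999). Dynap was low in 2-cell controls, with a mean of 3.40, and had means of 8.00 under U0126 and 3.82 in control day 3.5 embryos. Accsl (12.90) and Brdt (12.36) were instead highest in 2-cell controls. Without control replicate 2 or released replicate 2, Foxa1 (adjusted p = 0.0627 and 0.0616), Gdap1 (0.074 and 0.0672) and Khdc1b (0.0628 and 0.0616) lost their calls. Enpp3 lost it without control replicate 1 (0.0583) and released replicate 1 (0.0572), and Cnmd without control replicate 1 (0.056) and released replicate 2 (0.0685).

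The genes that rose lay, in released embryos, near their level in controls of the same day. Over the 854 risers the mean level was 5.84 and 5.75 on the control day 2.5 arrays, 7.56 and 7.72 on the released arrays and 7.71 and 7.42 on the control day 3.5 arrays. For the 398 fallers it was 8.40 and 8.45, then 6.91 and 6.77, then 6.47 and 6.74. The released and control day 2.5 arrays chose these genes; the control day 3.5 arrays did not. The median difference from control day 3.5 embryos was -0.11 for the risers and 0.16 for the fallers. Of all tested genes, 31 (0.312%) were called between released day 3.5 and control day 3.5 embryos, beside 1252 (12.6%) between released day 3.5 and control day 2.5 embryos. From control day 1.5 to day 3.5, a comparison with no array in common, 64% of the tested genes passed: 3484 rose (35.1%) and 2869 fell (28.9%). Of the 3484, 574 were higher after release (16.5%, or 67.2% of the risers) and 34 lower. Of the 2869, 261 were lower (9.10%, or 65.6% of the fallers) and 123 higher. Between U0126-treated and 2-cell embryos, again without a shared array, 50.1% passed, with 2787 genes higher (28.1%) and 2188 lower (22%). These gave shares near the background: of the 2787, 271 were higher after release (9.72%) and 105 lower (3.77%), and of the 2188, 196 (8.96%) and 107 (4.89%). All these comparisons take each gene's spread from the same fit, so their calls are not fully independent.

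Stage-matched here means a like cell number or stage as given by the submitters, and not a like transcript profile. The second such pair, released day 4.5 against control day 3.5, shares no array with the first. Both were tested with the same estimate of each gene's spread, so their calls are not fully independent. There 584 genes passed (5.88%), 382 higher (3.85%) and 202 lower (2.03%), and a replicate block gave 1017. In both comparisons 133 genes were higher, 15.6% of the earlier and 34.8% of the later risers, and 22 were lower, 5.53% and 10.9% of the fallers; 9 genes rose in the first and fell in the second, and 10 the reverse. Lgals1, which encodes galectin-1, was at 5.16 and 4.41 in control day 2.5 and 9.46 and 10.78 in released day 3.5 embryos (5.34 ± 0.76, adjusted p = 0.00292), and higher by 3.07 ± 0.76 in the later pair (adjusted p = 0.0424). The peptide transporter gene Slc15a2 rose by 3.21 ± 0.55 (adjusted p = 0.00651) and 5.31 ± 0.55 (adjusted p = 0.00104), the glycosyltransferase gene B3gnt5 by 3.15 ± 0.36 (adjusted p = 0.00128) and 3.37 ± 0.36 (adjusted p = 0.00109), and the membrane protease gene Tmprss2 by 3.74 ± 0.56 (adjusted p = 0.00366) and 3.37 ± 0.56 (adjusted p = 0.00795). Clic1 rose by 2.77 ± 0.45 (adjusted p = 0.00525) and 3.07 ± 0.45 (adjusted p = 0.00427).

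Lower at both stages was Tnfsf13b, the gene of the cytokine BAFF, by -2.88 ± 0.43 (adjusted p = 0.00346) and -3.07 ± 0.43 (adjusted p = 0.00329), from 10.07 and 9.92 to 7.35 and 6.87 in the earlier pair. The meiotic kinase gene Aurkc fell from 10.88 and 11.22 to 8.28 and 8.33 (-2.75 ± 0.48, adjusted p = 0.00686) and by -1.94 ± 0.48 in the later pair (adjusted p = 0.0404). Nlrp14 (-1.66 ± 0.32 and -1.77 ± 0.32), the fatty acid ligase gene Acsl4 (-1.63 ± 0.40 and -2.14 ± 0.40) and the elastase gene Cela3b (-3.84 ± 0.58 and -2.37 ± 0.58) were lower in both as well. In the later pair, only B3gnt5, Slc15a2 and Tnfsf13b of these genes at both stages were called without each of its 4 arrays in turn. Without control day 3.5 replicate 2 the adjusted p there was 0.377 for Lgals1, 0.102 for Tmprss2, 0.0601 for Clic1, 0.311 for Aurkc, 0.137 for Nlrp14, 0.141 for Acsl4 and 0.35 for Cela3b. In the earlier pair, Aurkc (adjusted p = 0.0523) and Nlrp14 (0.084) lost the call without control replicate 2, Nlrp14 also without released replicate 1 (0.0641), and Acsl4 without any 1 array (0.0772 to 0.138).

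**Figure D5:**
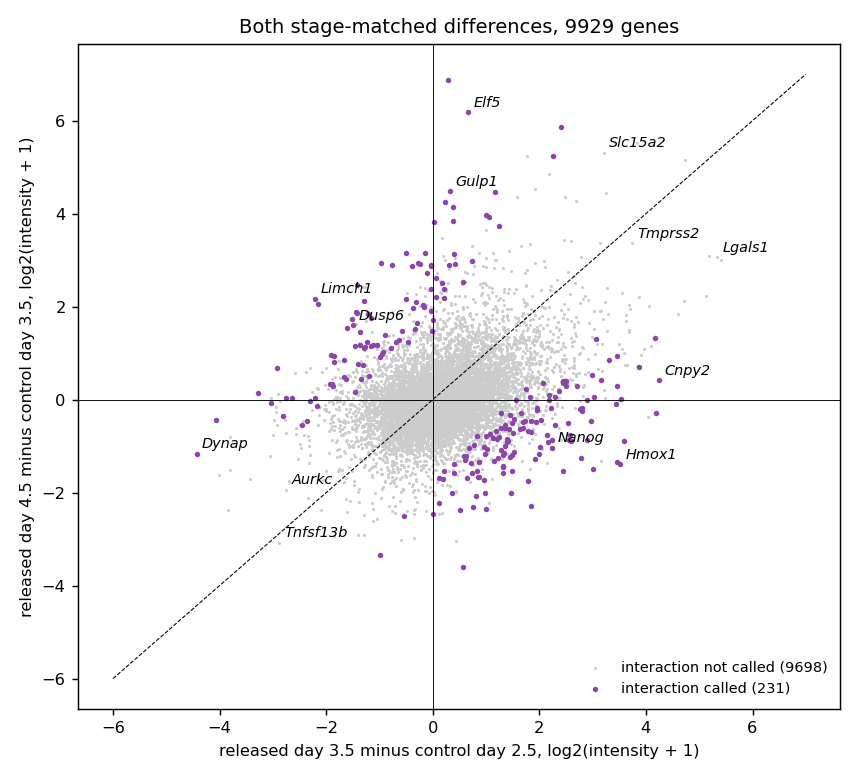
Difference of each of 9929 genes in the earlier stage-matched pair (x axis, released day 3.5 minus control day 2.5) and in the later one (y axis, released day 4.5 minus control day 3.5), both in log2(intensity + 1) units; the dashed line marks equal differences. Purple points are the 231 genes (2.33%) whose 2 differences were themselves different (limma, adjusted p under 0.05), with Hmox1, Nanog and Cnpy2 to the right below the diagonal and Elf5 and Gulp1 at the top above it.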

How the data were processed

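Total RNA (0.1 µg a sample, 2 rounds of amplification) was measured on 12 arrays, 2 in each of 6 groups. The deposited values are linear intensity values per probe set; the authors used GCOS 1.2 and GeneSpring 7.3 per the series text, and GCRMA per the submitters' processing notes, which give no version. Array medians were 10.8 to 11.5, and 2 arrays a group limit the precision: the median standard error of a difference was 0.348.

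The deposited intensities were taken to log2 after adding 1. Of 45101 probe sets, 64 controls were left out, 34945 had 1 gene symbol, 932 several and 9224 none; each of 18193 genes was read from its probe set of highest mean. Genes with a log2 level of 5 or more on at least 2 arrays (9929) were tested in limma 3.58.1 (R 4.3.3) with 1 mean per group over all 12 arrays (6 residual and 4.51 prior degrees of freedom), adjusted by Benjamini-Hochberg at 0.05. The fit was tested on simulated data. An exact permutation test of 2 against 2 arrays cannot go below p = 0.333.

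Arrays of the same replicate number deviated together from their group means in all 15 pairs of groups (r from 0.125 to 0.417, and 0.348 for the groups compared). The series text describes 2 separate experiments. The main fit had no replicate block, so its p-values do not use a pairing of the samples. The replicate block takes the numbers to pair the samples and was run only as an alternative. The alternatives were a replicate block, a pseudocount of 16, no filter, a filter at 7, median centring, quantile normalization, the mean of all probe sets, only the arrays compared, and leaving out each array in turn; the last leaves 1 array in a group, assumed to vary like the others.

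The members and the 30 gene lists (813 entries, 733 matched) were chosen with earlier results of these data known, so no list is independent evidence. Named genes were the 8 largest rises and falls above 5 on all 4 arrays, the 6 highest with 1 group under 5, up to 3 called genes per list and direction, a fixed set, and up to 5 in each direction called at both stages or different between stages. Histone, pseudogene, predicted and clone-named genes were left unnamed; leaving out clone names (for example expressed-sequence loci) goes beyond the written rule. Further called list members, and the markers Cd68 and Ovgp1, were named after their values were seen: among them Krt7, Slc2a3, Slc9a3r1, the desmosome genes, Myh9, Tdpoz1, Ier3, Xbp1, Sod2, Hspe1, Pgk1, Me1, Zmat3, Perp, Btg2, Neu1, Scarb2, Ndufa4, Cox5b, Oog3, Padi6 and Nlrp5. Of the junction list, 1 called gene is not reported here.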

Additional observations from a re-analysis of the deposited data

Results flagged for a closer look

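For 27 named genes the difference between released and stage-matched control embryos itself differed between the earlier pair (day 3.5 against control day 2.5) and the later pair (day 4.5 against control day 3.5), by limma's interaction term with a Benjamini-Hochberg adjusted p under 0.05. Over all 9929 genes 231 passed, or 2.33%. Values below are the earlier difference minus the later one, in log2 units. Of the 27, 8 were called without each of the 8 arrays in turn, 5 (Aqp11, Btg4, Ezr, Jun and Myc) were lost without every one of them, and all 27 were called with a replicate block.

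Among the 8, Hmox1 differed by 4.90 ± 0.69 (adjusted p = 0.00959), with 3.51 in the earlier and -1.39 in the later pair. Lama3, a laminin chain gene, differed by 4.80 ± 0.41 (adjusted p = 0.00117), being higher in the earlier pair by 3.47 and lower in the later by -1.33. The transcription factor gene Rfx4 differed by 4.48 ± 0.57 (adjusted p = 0.00717) and Cnpy2 by 3.83 ± 0.53 (adjusted p = 0.00924). Omt2a differed by -3.42 ± 0.43 (adjusted p = 0.00717) and Dynap by -3.27 ± 0.45 (adjusted p = 0.00924). Dynap was under 5 on every array of the later pair (3.44 and 4.20 in control day 3.5, 2.66 and 2.65 in released day 4.5), which limits a fall there. Elf5 differed by -5.53 ± 0.60 (adjusted p = 0.00393) and the protease inhibitor gene Serpinb6b by -4.04 ± 0.46 (adjusted p = 0.00515); both lay under 5 in the earlier pair and in control day 3.5 embryos and were higher in released day 4.5 embryos, by 6.19 and 4.26.

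Nanog differed by 3.27 ± 0.45 (adjusted p = 0.00924), with 2.24 in the earlier and -1.04 in the later pair, and Tex19.2 by 4.50 ± 0.63 (adjusted p = 0.00959). Without released day 4.5 replicate 2 the adjusted p of these genes was 0.0518 and 0.0526. Of the lineage genes, Sox17 differed by -3.76 ± 0.73 (adjusted p = 0.0277), Pdgfra by -3.32 ± 0.70 (adjusted p = 0.0379) and Lrp2 by 3.15 ± 0.61 (adjusted p = 0.0285). Ezr of the junction list differed by 2.73 ± 0.62 (adjusted p = 0.05, just under the threshold before rounding). Aqp11 of the water channel list differed by -2.65 ± 0.57 (adjusted p = 0.042). Of ERK target genes, Dusp6 was lower in the earlier and higher in the later pair, a difference of -3.09 ± 0.47 (adjusted p = 0.0129). Jun differed by 2.26 ± 0.47 (adjusted p = 0.0366) and Myc by -1.79 ± 0.39 (adjusted p = 0.0446).

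The remaining genes were Cat with 2.97 (adjusted p = 0.0129), Pramel18 with 4.48 (adjusted p = 0.043), Ptges with 3.19 (adjusted p = 0.0243) and Tpp1 with 2.83 (adjusted p = 0.0236). On the negative side were Limch1 with -4.39 (adjusted p = 0.0211), Fam189a2 with -4.20 (adjusted p = 0.013), the engulfment adaptor gene Gulp1 with -4.16 (adjusted p = 0.0211), Brdt with -2.48 (adjusted p = 0.0129) and Btg4 with -1.91 (adjusted p = 0.0422). Brdt and Btg4 were under 5 on every array of the later pair, which limits a fall there. The highest adjusted p with 1 array left out ranged from 0.0111 to 0.172 over the 27 genes.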

How the results depend on the processing

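Of 165 named genes 136 were called, 46 of them under every alternative run and 90 lost under at least 1. All 136 were called with a replicate block, which added Cdkn1a, Cdkn1c and Cd68 and changed no other named call. Other settings added calls of Dab2 (mean of probe sets, only the arrays compared), Gadd45g (only the arrays compared), Cdkn1a (filter at 7, pseudocount of 16) and Cdkn1c (filter at 7, mean of probe sets). Lost were 4 with a pseudocount of 16, 6 with quantile normalization, 10 with the mean of all probe sets, 14 with median centring, 26 with only the arrays compared and 33 with no filter. Without control replicate 1, control replicate 2, released replicate 1 and released replicate 2 in turn, 67, 78, 47 and 82 were lost. With 1 array left out the count of calls was 267 to 576 (202 to 413 higher, 65 to 163 lower), by construction with fewer samples; the block gave 2017 (1313 higher, 704 lower), and only the arrays compared gave 250 lower. In the later pair, only the arrays compared gave 313 calls, the block 1017, and 1 array left out 84 (control day 3.5 replicate 2) to 541 (control day 3.5 replicate 1). The difference between pairs gave 613 with the block and 30 to 115 with 1 array left out. Against control day 3.5 embryos there were 2 calls with no filter, 20 with a pseudocount of 16, and 1 to 30 with 1 array left out. Among genes with no call, 10 changed sign with 1 array left out: Dbp ranged from -0.44 to 1.58, Etv5 from -0.29 to 0.69, Fgfr1 from -0.48 to 0.48, Fgfr2 from -0.47 to 0.25, Gata6 from -1.05 to 0.058, Gdf3 from -0.12 to 1.05, Gulp1 from -0.098 to 0.73, Pou5f1 from -0.33 to 0.79, Serpinb6b from -0.15 to 0.60 and Sox17 from -0.16 to 0.92. With the mean of all probe sets Fgfr2 was at 0.30 and Gulp1 at -0.030. The cause was not tested. Levels under 5 lie near background, which limits the size of differences counted from them.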
